A study of Rattus norvegicus with 2 samples.

Results

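Macrophages and other leukocytes were followed in HIP rats through 8 marker genes: Cd68, Laptm5, Aif1, Cd14, Csf1r, Itgam, Ptprc and Mpo. HIP rats are transgenic for human IAPP (islet amyloid polypeptide), which aggregates into amyloid, and they were set against nondiabetic wild-type rats. The markers were taken by name, as every gene probe of the array whose gene name, with an ending that marks a predicted gene removed, was one of the 8 symbols. Mpo is listed with an ending that marks a mapped gene and was counted. The rule found 12 probes for the 8 genes, out of 41012 gene probes, and 8 of the 27876 genes tested were these markers. Csf1r and Cd14 had 2 probes each, Ptprc had 3, and the other 5 genes had 1.

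The study hybridised 2 two-colour arrays. Each array held amplified cDNA of 1 HIP extract, labelled with Cy5, and 1 wild-type extract, labelled with Cy3, so n = 2 arrays throughout. Since no dyes were swapped, dye and genotype cannot be told apart. The labels give the genotype of each extract but call the material only cell samples. The tissue, the age and sex of the rats, the promoter of the transgene and whether extracts came from separate animals are not given in the sources used here. All p-values therefore measure no more than the spread between the arrays, and that spread may be technical. The series title names islet inflammation and duct cell proliferation, and the question addressed here is whether leukocyte marker transcripts differed between HIP and wild-type extracts. In such bulk extracts, fewer cells of a type and less RNA per cell cannot be told apart.

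Macrophages of the pancreas sit in and around the islets, and amyloid formed by human IAPP is known to make macrophages release inflammatory cytokines. The markers stand for different parts of such a cell. CD68 and LAPTM5 are lysosomal membrane proteins, and AIF1 (also called IBA1) is a calcium-binding protein of the macrophage cytoskeleton. CD14 binds bacterial lipopolysaccharide and passes it to toll-like receptor 4, CSF1R is the receptor through which CSF1 keeps macrophages alive, and ITGAM (CD11b) is the alpha chain of an integrin that pairs with ITGB2. PTPRC (CD45) is the phosphatase carried by nearly all nucleated blood cells, and MPO is the peroxidase of neutrophil and monocyte granules.

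Myeloid genes are known to be switched on by the factor PU.1, which binds purine-rich DNA around the letters GAGGAA. These letters, on either strand, were present in the 250 bases before the start of all 7 markers that had a promoter sequence in RefSeq's table of the GRCr8 assembly, against 23.3% of 33469 promoters of that length. Aif1 had no entry. Of these stretches, 4 are shown, from genes with mean ratios on either side of 1: Laptm5 and Ptprc above it and Mpo and Itgam below it. They are written on the strand of the gene, and capitals mark the match, which reads TTCCTC where it lies on the opposite strand. A match describes the sequence and is not evidence of binding.
Laptm5, chr5:148371797-148371842, + strand: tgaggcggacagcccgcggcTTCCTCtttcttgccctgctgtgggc
Ptprc, chr13:52259884-52259929, - strand: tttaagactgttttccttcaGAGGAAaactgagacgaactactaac
Mpo, chr10:73092247-73092292, + strand: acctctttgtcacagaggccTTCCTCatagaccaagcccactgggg
Itgam, chr1:192089533-192089578, + strand: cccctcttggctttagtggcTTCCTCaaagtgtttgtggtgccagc

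Across the 8 markers there was no common shift. By limma with Benjamini-Hochberg adjustment, 0 of 8 markers and 0 of all 27876 genes (0%) passed an adjusted p of 0.05 in either direction, and no adjusted p was below 0.932. There were 913 genes at an unadjusted 0.05, and 0 markers were among them. After loess normalization 4 markers had ratios of HIP to wild type above 1 on both arrays (Aif1, Ptprc, Laptm5 and Cd14), against 27.1% of all genes, and 3 had ratios below 1 on both (Mpo, Itgam and Csf1r), against 23.1% of all genes. Cd68 differed in direction between the arrays. No marker was at least 2-fold apart in the same direction on both arrays, where 2.69% of all genes were higher and 2.47% were lower. The median of the markers' mean log2 ratios was 0.19, against 0.02 for all genes tested, and the median of their absolute values was 0.86, against 0.44. For a single gene, flipping the signs of 2 ratios (exact, two-sided) cannot give a p below 0.5.

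Of the 12 probes, 11 were called well above background by the scanner software in all 4 extracts. Between 73.6% and 85.0% of gene spots were so called in an extract, but so were 77.4% to 90.1% of 1112 spots for olfactory receptors, genes expressed mainly in the nose, against 0% of 153 negative control spots. The wild-type extract of array 2 was the dimmest, with a median gene spot at 2.94 times its local background, against 5.10 to 5.26 times in the other 3 extracts. A marker that was called well above background was therefore not taken as expressed on that ground alone.

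Among the lysosomal proteins, Laptm5 was far brighter than its background in every extract and Cd68 was close to it. The processed signal of Laptm5, which the software corrects for background and dye, was 171663 and 44748 in HIP extracts 1 and 2, against 39948 and 34887 in wild-type extracts 1 and 2. On these signals both HIP extracts lay above both wild-type extracts, as did those of 17.1% of all genes. HIP extract 1 stood apart from the other 3. On levels aligned between the arrays the groups overlapped, with HIP extract 2 at 13.08 and wild-type extract 1 at 13.27 (log2 scale). The log2 ratio was 2.09 on array 1 and 0.24 on array 2, a mean of 1.16 ± 1.31 (SD, n = 2 arrays, limma adjusted p = 0.932). Without array 1 the mean fold change of 2.24 becomes 1.18, the fold on array 2, and with median centring the mean log2 ratio was 1.89 relative to all genes. HIP extract 2 lay below HIP extract 1 by 2.29 on the log2 scale once levels were aligned between the arrays, so the HIP extracts differed from each other by more than the mean ratio between the genotypes.

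Cd68 had processed signals of 124 and 99.7 in HIP extracts, against 86.2 and 129 in wild-type extracts. The groups overlapped. Its spots were 2.35 and 2.18 times their local background in HIP extracts and 2.04 and 1.90 times in wild-type extracts, where the median negative control spot was at 1.09 and 1.09 times in HIP extracts and 1.20 and 1.22 times in wild-type extracts. The log2 ratio was 0.16 and -0.09, a mean of 0.03 ± 0.17 (SD, n = 2 arrays), and with median centring it took the other sign, at -0.38 relative to the median of all genes. By limma its adjusted p was 0.999, with a moderated standard error of 0.39.

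**Figure D1:**
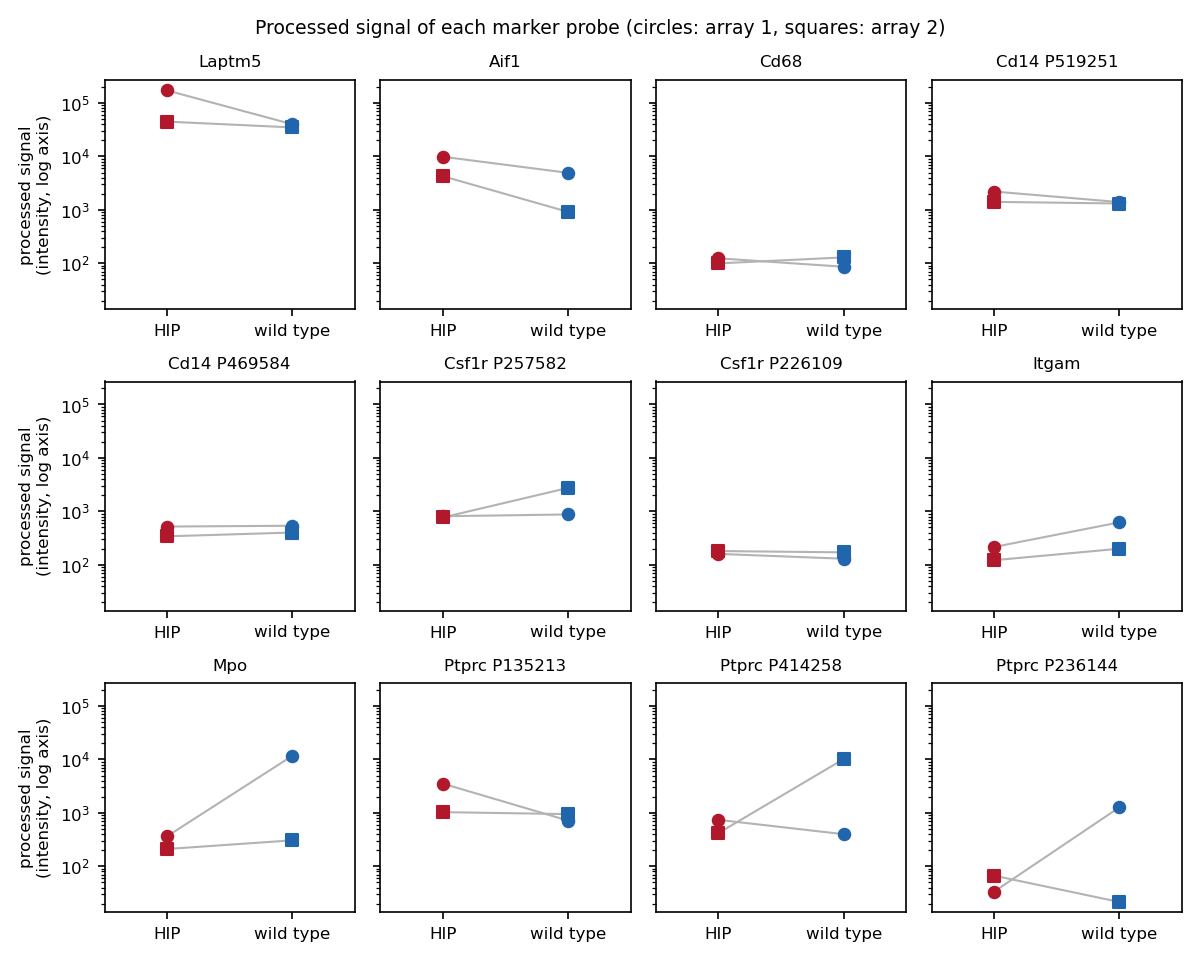
Processed signal (intensity, log axis) of each of the 12 marker probes in HIP extracts (red, left) and wild-type extracts (blue, right), with circles for array 1, squares for array 2 and grey lines joining the extracts of 1 array. Aif1 was brighter in the HIP extract of each array, while Mpo and 2 Ptprc probes had 1 wild-type extract far above the other 3 extracts.

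Of Mpo, Aif1, Laptm5 and Ptprc, the 4 markers with mean ratios furthest from 0, Aif1 had arrays nearest to each other. Its processed signal was 9863 and 4269 in HIP extracts 1 and 2, against 4931 and 917 in wild-type extracts 1 and 2. On each array the HIP extract was the brighter, but the groups overlapped, since wild-type extract 1 lay above HIP extract 2. The log2 ratio was 0.99 on array 1 and 1.76 on array 2, or 1.99-fold and 3.40-fold, with a mean of 1.38 ± 0.55 (SD, n = 2 arrays). The limma test gave an unadjusted p of 0.064 and an adjusted p of 0.932, and 14.5% of all genes had a mean ratio further from 0. With the scanner software's own ratios Aif1 was 1.00 and 2.22, which put it at the 2-fold limit on array 1 and past it on array 2. Under the 10 alternative settings its mean lay between 1.38 and 1.88. Between arrays, levels differed by 1.13 within HIP and by 1.90 within wild type on the log2 scale, with extract 1 the higher in both genotypes. Its probe lies at chr20:3715789-3716370 on the + strand in the array's own coordinates. Which genome build these use was not stated in the labels or file headers used here.

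The receptors gave small or unequal ratios. The brighter of 2 Cd14 probes had processed signals of 2201 and 1412 in HIP extracts, against 1398 and 1315 in wild-type extracts. Both HIP extracts lay above both wild-type extracts, by little on array 2. Its log2 ratio was 0.51 and 0.19, a mean of 0.35 ± 0.22 (SD, n = 2 arrays, limma adjusted p = 0.945). The other Cd14 probe, 780 bases nearer the 3′ end of the gene in the array's coordinates, had 520 and 341 in HIP extracts, against 538 and 402 in wild-type extracts. There the log2 ratio was -0.12 and 0.01, and the groups overlapped. The mean of both probes was 0.15, the authors' deposited table gives 0.30 and -0.05 for the gene, and with median centring the brighter probe was 0.64 relative to all genes.

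Csf1r was covered by 2 probes under its own name. The brighter had processed signals of 811 and 769 in HIP extracts, against 875 and 2744 in wild-type extracts. Both HIP extracts lay below both wild-type extracts, and wild-type extract 2 was alone in being far higher. Its log2 ratio was -0.17 and -1.38, a mean of -0.78 ± 0.86 (SD, n = 2 arrays, limma adjusted p = 0.932). The second probe, at 2.06 to 2.38 times its local background, gave 0.10 and -0.03, and the mean of both probes was -0.37. With median centring the brighter probe was -0.50 relative to all genes. A further probe, listed under a transcript identifier and described in the files as a Csf1r cDNA, falls outside the naming rule and was added after its values were seen. It had 2366 and 3086 in HIP extracts, against 2078 and 3046 in wild-type extracts, with overlapping groups and log2 ratios of 0.15 and 0.11. Csf1, the ligand of the receptor, was below 0 on both arrays, at -0.86 and -0.29.

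Itgam had processed signals of 216 and 122 in HIP extracts, against 623 and 200 in wild-type extracts. Wild-type extract 1 was the highest and the other 3 lay close together, so the groups overlapped. The log2 ratio was -0.92 and -0.11, a mean of -0.51 ± 0.57 (SD, n = 2 arrays, limma adjusted p = 0.933). The scanner's own ratios were larger, at -1.53 and -0.71, with a mean of -1.12 against -0.51 with loess. Its spots were 2.70 and 2.45 times their background in HIP extracts and 4.62 and 1.96 times in wild-type extracts. Itgb2, its integrin partner, differed in direction between the arrays, with log2 ratios of -1.96 and 1.78.

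**Figure D2:**
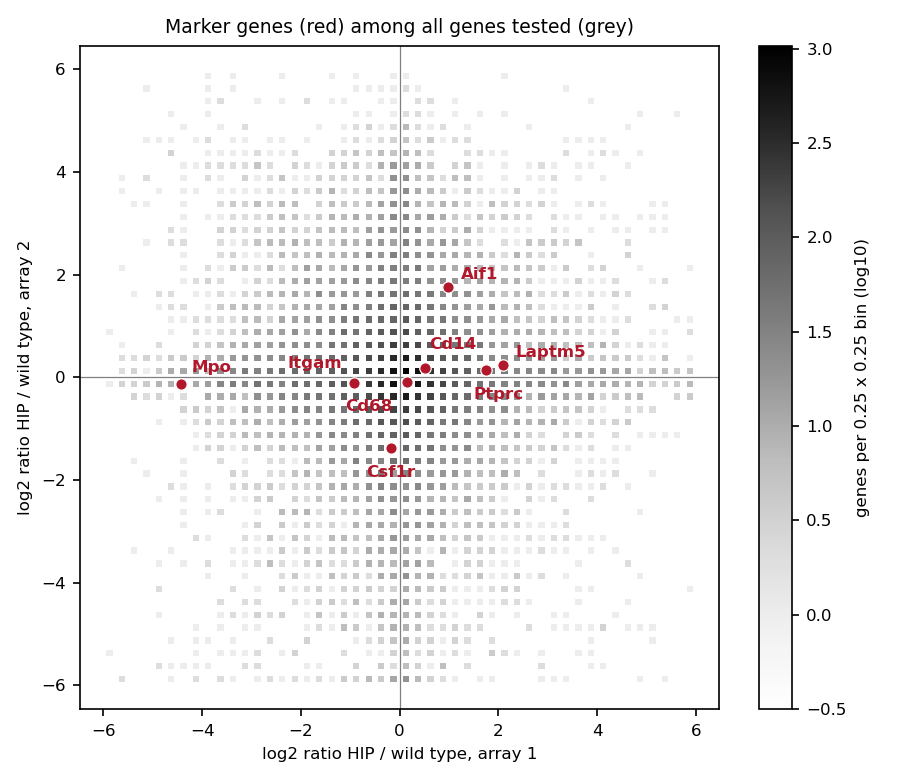
Log2 ratio of HIP to wild type on array 1 (x axis) and array 2 (y axis) for the 8 markers (red) over all 27876 genes tested (grey squares, bins 0.25 wide, with ratios beyond 6 drawn at the edge). Mpo, Laptm5, Ptprc and Csf1r lie along an axis, with a ratio far from 0 on 1 array and near 0 on the other. Cd68, Cd14 and Itgam lie within 1 of 0 on both arrays, and Aif1 lies away from both axes at 0.99 and 1.76.

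Ptprc, the pan-leukocyte marker, gave 3 different answers from its 3 probes. The brightest probe, which stands for the gene, had 3524 and 1032 in HIP extracts, against 717 and 948 in wild-type extracts. Both HIP extracts lay above both wild-type extracts, and HIP extract 1 stood apart. Its log2 ratio was 1.75 and 0.14, a mean of 0.94 ± 1.14 (SD, n = 2 arrays, limma adjusted p = 0.932).

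The second Ptprc probe had 740 and 419 in HIP extracts, against 399 and 10168 in wild-type extracts. Here wild-type extract 2 was 25.5 times wild-type extract 1 and the groups overlapped. The log2 ratio was 0.47 on array 1 and -3.79 on array 2.

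The third Ptprc probe had 33.7 and 66.8 in HIP extracts, against 1269 and 21.5 in wild-type extracts. It was well above background in HIP extract 2 and wild-type extract 1 alone, and so did not pass the filter, and its ratios were -2.44 and 0.28. Wild-type extract 2 was at 1.21 times its local background, no brighter than the median negative control, so no fold is given between the wild-type extracts. In the array's coordinates, on the - strand, the second probe lies nearest the 3′ end of the gene (chr13:51265133-51265192), the third lies 27.8 kb further 5′ (chr13:51292907-51292966) and the brightest 51.7 kb further 5′, with its ends in separate places (chr13:51316811-51371847). With the mean of the 2 probes that passed the filter in place of the brightest, the mean log2 ratio of Ptprc changed sign to -0.36. In the authors' deposited table the gene has 1 entry, with log2 ratios of 0.76 and -0.53.

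Mpo had the largest ratio of the markers, and it came from 1 extract. Its processed signal was 365 and 211 in HIP extracts, against 11672 and 306 in wild-type extracts. The groups overlapped, and 3 of the 4 extracts lay within a narrow range while wild-type extract 1 was 38.2 times wild-type extract 2. The log2 ratio was -4.42 on array 1, a 21.4-fold difference, and -0.14 on array 2, a 1.1-fold one, with a mean of -2.28 ± 3.03 (SD, n = 2 arrays, limma adjusted p = 0.932). Without array 1 the value was -0.14. Among 13 other genes of neutrophils and granulocytes, the log2 ratio on array 1 ranged from -0.60 for Lcn2 to 2.56 for Camp.

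The spread within a genotype was as wide as that between genotypes. For the median gene, aligned levels differed between HIP and wild type by 0.53 on array 1 and 0.46 on array 2 (log2 scale). They differed by 0.52 between the 2 HIP extracts and by 0.56 between the 2 wild-type extracts. Pairs within a genotype also lie on different arrays, so array and extract cannot be told apart in them. Across arrays, the genotypes differed by 0.54 (HIP 2 against wild type 1) and 0.53 (HIP 1 against wild type 2). For Laptm5, Aif1, Mpo and the brightest Ptprc probe, the extracts of at least 1 genotype differed from each other by more than 1 log2 unit, and for Csf1r the wild-type extracts did so too, at 1.26. On the processed signals the groups did not overlap for 4 markers, with Ptprc, Laptm5 and Cd14 higher in HIP (17.1% of all genes were so placed) and Csf1r lower (14.4%). On the aligned levels Ptprc and Cd14 were higher (15.9% of all genes) and Mpo, Itgam and Csf1r lower (15.1%), while Laptm5 and Aif1 overlapped.

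**Figure D3:**
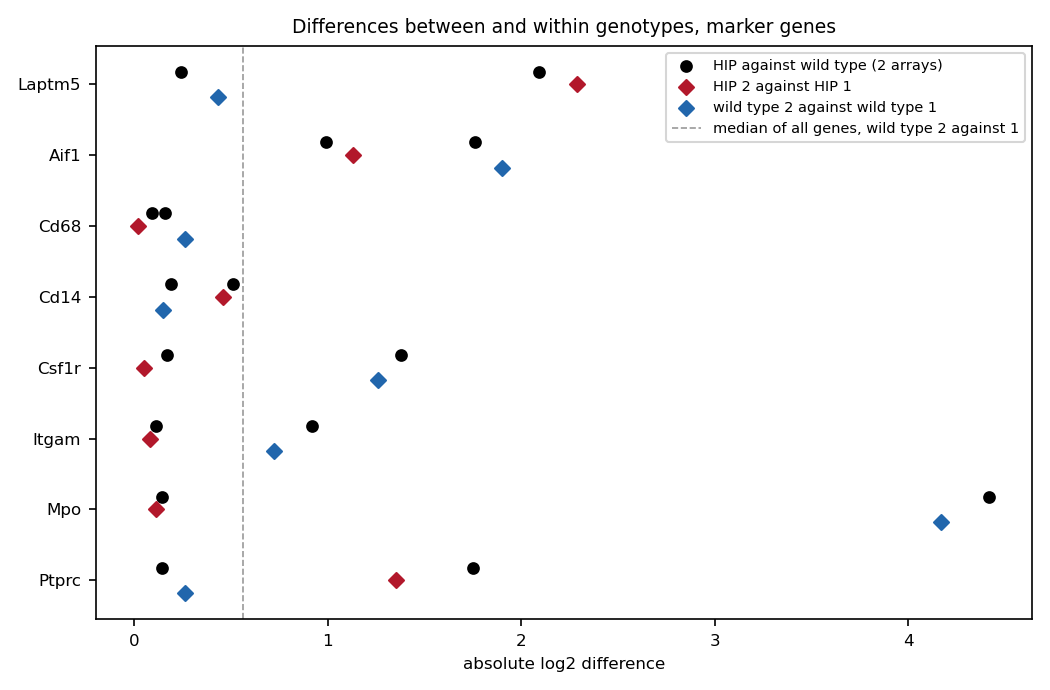
Absolute log2 difference (x axis) between HIP and wild type on each array (black), between the 2 HIP extracts (red) and between the 2 wild-type extracts (blue) for the probe standing for each marker, with the median of all genes between wild-type extracts (0.56) as a dashed line. In Mpo the wild-type extracts differ almost as much as HIP and wild type do on array 1 (log2 ratio -4.42), with extract 2 at -4.17 relative to extract 1, and in Laptm5 HIP extract 2 is at -2.29 relative to HIP extract 1.

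Other leukocyte genes were read from 7 lists of 104 genes, of which 83 were tested. By limma 0 passed an adjusted p of 0.05 and 2 passed an unadjusted 0.05, as did 913 of all 27876 genes. Of the 83, 21 had ratios above 1 on both arrays, 20 below 1 on both and 42 differed, 1 was 2-fold higher on both arrays (1.2%, against 2.69% of all genes) and 1 was 2-fold lower (1.2%, against 2.47%). A further 4 were 2-fold apart in opposite directions, against 5.56% of all genes. The median of their mean log2 ratios was -0.02.

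Of 18 tested monocyte and macrophage genes, 5 were above and 5 below on both arrays and 8 differed, with a median of -0.07, or 0.42 relative to all genes with median centring. Siglec1, the sialic acid receptor of resident macrophages in lymphoid tissue, was the gene 2-fold higher on both arrays. It had processed signals of 11791 and 15390 in HIP extracts, against 1512 and 1358 in wild-type extracts. The extracts of each genotype lay close together and the groups were far apart, with log2 ratios of 2.70 and 3.15 and a mean of 2.92 ± 0.32 (SD, n = 2 arrays, limma adjusted p = 0.932), from 1 probe. Spi1, which encodes PU.1, was 1.14 and -0.15, and Lyz2, the lysozyme of macrophages, was -0.03 and -1.35. These 2 and the partners Csf1 and Itgb2 were named after their values were seen.

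Of 15 pan-leukocyte genes, 4 were above, 6 were below and 5 differed, with a median of -0.10. Vav1, a signalling protein of blood cells, was 2-fold lower on both arrays. It had 113 and 289 in HIP extracts, against 3209 and 9526 in wild-type extracts. The groups were far apart, with log2 ratios of -3.42 and -4.03 and a mean of -3.72 ± 0.43 (SD, n = 2 arrays, limma adjusted p = 0.932), again from 1 probe. The signal of 113 in HIP extract 1 lay within the range of Cd68 (86.2 to 129), which was close to background. The size of the Vav1 ratio is therefore uncertain, at least on array 1. As means of the 2 arrays, the ratios of Siglec1 and Vav1 lay further from 0 than those of the 8 markers, in opposite directions, though Mpo on array 1 alone was at -4.42.

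Among 13 neutrophil and granulocyte genes 4 were above, 2 below and 7 differed (median 0.11). The largest mean ratios with 1 sign were those of Camp, an antimicrobial peptide, at 2.56 and 0.03, and of Fpr1, a receptor for bacterial peptides, at -0.51 and -2.22. Among 14 genes of T and NK cells 2 were above, 4 below and 8 differed (median 0.17), with Cd5 at 0.27 and 1.26 and Cd8a, a chain of the co-receptor of cytotoxic T cells, at -1.80 and -0.98. Of 6 B cell and plasma cell genes 1 was above, 0 were below and 5 differed (median 0.01), with the complement receptor Cr2 at 0.52 and 0.15. Of 6 mast cell genes 1 was above, 0 were below and 5 differed (median 0.06), with Fcer1a, part of the IgE receptor, at 0.78 and 0.54. Wild-type signals of Fcer1a, at 79.9 and 48.6, lay below the range of Cd68 (86.2 to 129), so the size of its ratio is uncertain. Of 11 partners and signalling genes of CSF1R and CD14, 4 were above, 3 below and 4 differed (median -0.14), with Icam1, a ligand of ITGAM, at 1.54 and 0.53 and the adaptor Grb2 at -2.51 and -0.04. Each of these genes named from a list kept the sign of its mean with median centring. That setting put the list medians, relative to all genes, at 0.29 for neutrophils and granulocytes, 0.18 for T and NK cells, 0.11 for B and plasma cells, 0.50 for mast cells, -0.15 for the CSF1R and CD14 partners and -0.09 for the pan-leukocyte genes.

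**Figure D4:**
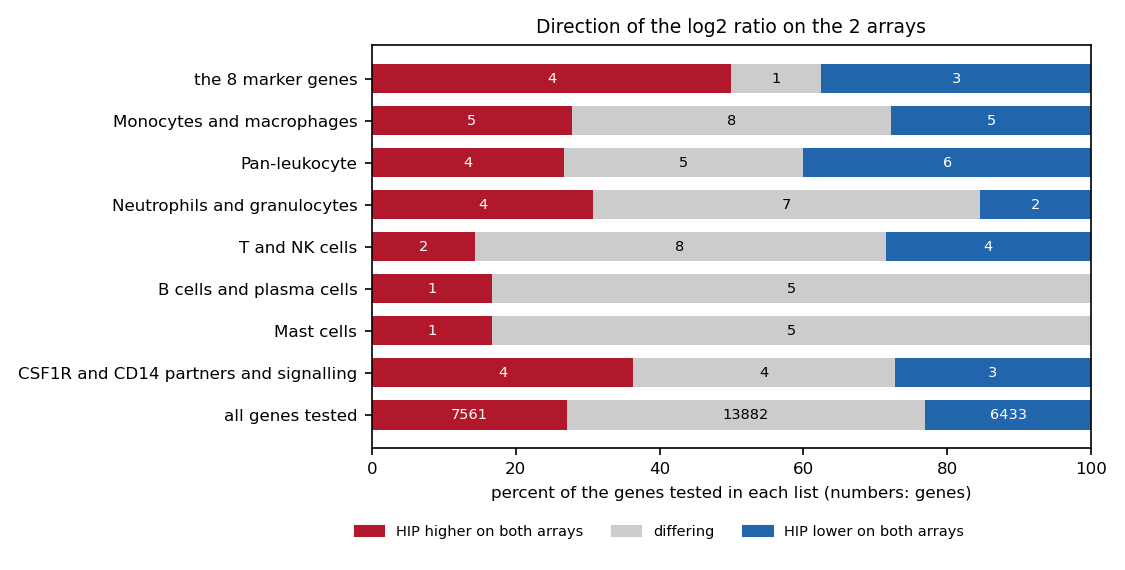
Percent of the tested genes in each list with HIP higher than wild type on both arrays (red), differing between arrays (grey) and HIP lower on both (blue), with gene counts in the bars. The 8 markers split 4, 1 and 3, and of all 27876 genes 27.1% were higher and 23.1% lower on both arrays.

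Markers of other cell types also varied between the extracts. The summed processed signal of 7 endocrine genes was 86430 and 111398 in HIP extracts, against 146697 and 238675 in wild-type extracts. Of these genes 3 were above, 3 below and 1 differed. Those below were Ins1, 2-fold lower on both arrays at -1.18 and -1.02, Ins2 at -1.04 and -0.85, and Chga at -0.06 and -1.63. Sst, Ppy and Iapp were above 0 on both arrays, but Sst and Iapp were dim. Their wild-type signals were 61.2 and 49.8 for Sst and 85.5 and 66.2 for Iapp. These lay below the range of Cd68 (86.2 to 129), which was close to background, so their ratios are uncertain. Ppy was brighter, with 1949 and 934 in HIP extracts, against 809 and 804 in wild-type extracts. By Ppy at least, the lower sums did not extend to the whole list. For 4 ductal genes the sums were 7922 and 7843 in HIP extracts, against 14313 and 22577 in wild-type extracts, with 2 above, 1 below and 1 differing. The keratin gene Krt8 alone carried that gap, with 1020 and 1046 in HIP extracts, against 7453 and 18293 in wild-type extracts. By their brightest probes, Sox9 (0.02 and 0.74) and Cftr (0.18 and 0.48) were above 0 on both arrays. Their other kept probes were below 0 on both arrays. These gave -0.32 and -1.22 and, from a further probe, -0.3 and -0.06 for Sox9, and -0.19 and -0.47 for Cftr. For 6 acinar genes the sums were 17818 and 68997 in HIP extracts, against 22382 and 31216 in wild-type extracts, with 3 above, 1 below and 2 differing. The sums of 18 monocyte and macrophage genes were 136229 and 194820 in HIP extracts, against 156421 and 196310 in wild-type extracts, and they overlapped. Sums of 5 endothelial, 4 stromal, 4 neural and Schwann and 2 red cell genes lay between 2848 and 20823. The part of these cell types in the ratios of the 8 markers was not tested.

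**Figure D5:**
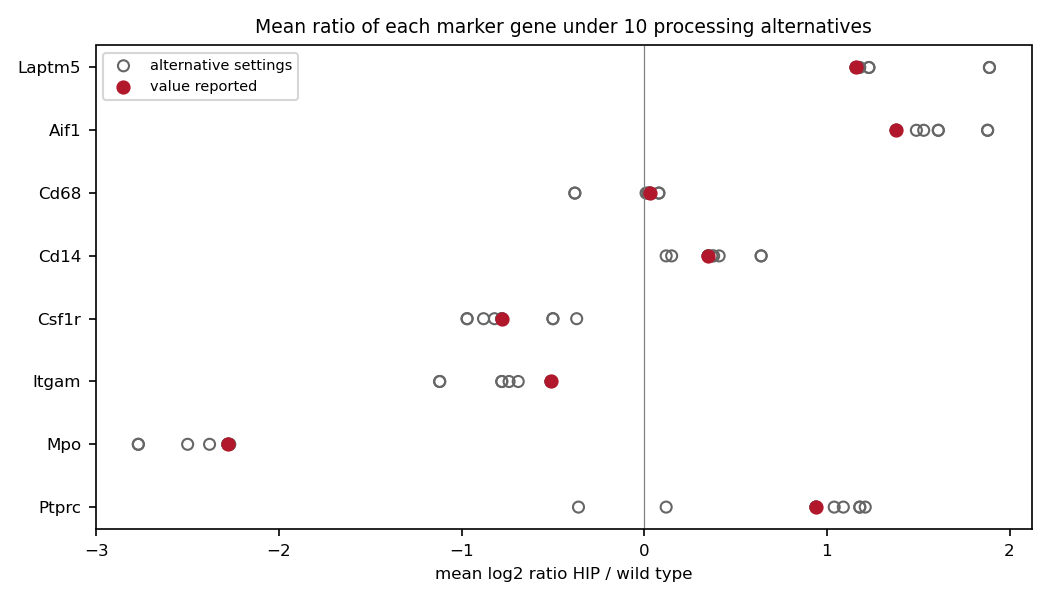
Mean log2 ratio of HIP to wild type of each marker as reported (red) and under 10 processing alternatives (open circles), with settings that shift all genes drawn relative to the median of all genes. Aif1, Laptm5 and Cd14 stay above 0 and Mpo, Itgam and Csf1r below 0 in these 10 settings, while Cd68 and Ptprc cross 0. Several settings repeat the value of another for every marker, so the circles are not separate checks.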

How the data were processed

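The samples are 2 two-colour Agilent arrays (design 014879) on 1 slide and in 1 scan, per the file headers. mRNA was isolated with magnetic beads and its cDNA amplified by PCR, per the labels' protocols, which can change transcript proportions. Per the file headers, the authors used Feature Extraction 9.5.1.1 to read the spots. The deposited intensities are mean spot and median background brightness as scanned, and a processed signal intensity that is background-subtracted, detrended and dye-normalized, per the file headers. The deposited log10 ratio is processed Cy5 (HIP) over Cy3 (wild type), with a p-value from the software's error model, per the file headers. The authors' deposited table of log10 ratios equals these values within 2e-05 for 89.5% of 36734 matched entries, and how probes were combined elsewhere is unknown.

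The steps in R 4.3.3 used limma 3.58.1: normexp (offset 50), loess within arrays with control spots at weight 0, outlier spots left out, spots of a probe averaged. Of 41012 gene probes, 33229 (81.0%) were well above background in 1 dye on both arrays and were kept, and the brightest stood for its gene. A gene's mean log2 ratio was compared with 0 by limma's moderated two-sided test (eBayes after lmFit, with 1 residual degree of freedom), with Benjamini-Hochberg adjustment over 27876 genes. Levels per extract were aligned between arrays with Aquantile. Names were updated through RefSeq's GRCr8 gene table (20035 of 41012 probes matched), and 1628 probes without a name were not tested. A further 19349 probes kept the array's own name, and those that passed the filter were tested as genes under it. The genes tested therefore include transcript entries, such as the Csf1r cDNA, that may belong to a gene already counted.

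The members and lists were chosen with earlier results of these data known. Genes named from a list were those 2-fold apart the same way on both arrays, or otherwise those with the largest mean ratio in each direction among genes with 1 sign. On the loess ratios no marker was 2-fold apart the same way on both arrays, so no genes of similar pattern were named. The alternatives tried were other normalizations, background corrections, filters, probe summaries, variance priors, separate channels, the authors' table and leaving out each array.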

Additional observations from a re-analysis of the deposited data

How the results depend on the processing

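The count of genes passing limma stayed at 0 under 13 alternatives (832 to 4709 genes at an unadjusted 0.05). The scanner's error model, which describes spots of 1 array and not differences between samples, called 6483 genes the same way on both arrays and 6654 opposite ways. Genes 2-fold apart the same way on both arrays numbered 1439 as reported, 2531 with median centring, 7986 without normalization, 2925 with the scanner's processed ratios and 2716 in the authors' deposited table. Of these, 52.2% were higher in HIP as reported, 84.9% with median centring and 98.0% without normalization; the typical gene then had a log2 ratio of 0.18 (array 1) and 0.27 (array 2) with centring, and of 0.81 (array 1) and 1.22 (array 2) without. For the markers, many alternatives gave no separate check. Every marker had its reported value under both other filters and with outlier spots kept. Values without normalization, set relative to all genes, repeat those with median centring by construction. The authors' table repeats the scanner's ratios except for Ptprc and Cd14. Of 80 marker values under 10 alternatives, repeats included, 77 kept their direction relative to all genes and 3 took the other sign. These 3 were Cd68 with median centring and without normalization (-0.38 in both) and Ptprc as the mean of its probes (-0.36). The cause was not tested. No slide block could be fitted, since both arrays share 1 slide, and leaving out an array left no test. Genotype and dye cannot be told apart because the dyes were not swapped. Spots near background (Cd68, Itgam, the second Csf1r probe, and Mpo outside wild-type extract 1) limit what a ratio can show.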

Other observations

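Probes of 1 gene seldom gave the same ratio, for the array as a whole as for Ptprc. Among 3268 genes with 2 or more kept probes, the 2 brightest had the same sign in 53.5% of genes on array 1 and 51.4% on array 2. Across these genes, which are not independent replicates, the Pearson r between the 2 probes was 0.16 on array 1, 0.11 on array 2 and 0.15 for the mean of the arrays, and 0.14 for the 2600 pairs designed against 1 transcript accession. Where both probes were at least 2-fold from 0, 67.4% of 383 pairs on array 1 and 62.6% of 337 pairs on array 2 had the same sign. The Pearson r of all genes between the arrays was -0.011.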
